A study of Rattus norvegicus with 6 samples.

Results

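Rat aortic smooth muscle cells, kept static or placed under fluid flow, were read on expression arrays for 9 genes of secreted vascular growth factors and their receptors. The genes were Vegfa, Vegfc, Flt1, Kdr, Hgf, Met, Angpt1, Angpt2 and Bdnf. They were represented by all probe sets annotated with exactly 1 of these symbols, which gave 14 of the 31099 probe sets on the array, and 0 probe sets paired a member symbol with another gene. The cells were of passage 3 to 5 and had been moved from 10% serum to 0.1% albumin for 24 h. The shear group, with 3 arrays, then received laminar flow at 14 dyn per square centimetre for 24 h in a parallel-plate chamber, and the static control group, also with 3 arrays, received none. No genotype or drug treatment is named for either group, and strain, age and sex of the rats are not given. Each static array shares a pairing number with 1 shear array. The labels do not say what the arrays of a pair have in common. The replicate spread behind each p-value may therefore be technical only. Shear stress and any other difference between chamber and static dish cannot be told apart.

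Vascular endothelial growth factors are secreted dimers that act on receptor tyrosine kinases of endothelial cells. VEGF-A, the product of Vegfa, is the main signal for blood vessel growth, and VEGF-C, the product of Vegfc, for lymphatic vessel growth. Kdr encodes VEGFR-2, the receptor that carries most of the VEGF-A signal, and Flt1 encodes VEGFR-1, which binds VEGF-A tightly and also exists as a soluble form that traps it. Hepatocyte growth factor, from mesenchymal cells, acts on the receptor kinase Met. Angiopoietin 1 steadies vessels through the endothelial receptor Tie2, angiopoietin 2 can oppose it, and brain-derived neurotrophic factor (Bdnf) acts on the receptor TrkB. In the vessel wall, smooth muscle is known as a source of several of these ligands for the neighbouring endothelium.

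Promoter windows are shown for the genes with a probe set that passed the test, Vegfa, Flt1 and Vegfc, to set their sequences side by side. The windows are RefSeq sequences of build GRCr8, run 5′ to 3′ on the gene's strand, and hold 250 bases before and 50 after the annotated start. The table held windows for 7 of the 9 genes. Capitals mark matches, on either strand, to any of the motifs GC box (GGGCGG), hypoxia response core (ACGTG or GCGTG), cAMP response element (TGACGTCA) and AP-1 site (TGANTCA). Vegfa lies at chr9:22452604-22452903 on the plus strand, Flt1 at chr12:12333180-12333479 on the plus strand and Vegfc at chr16:44560838-44561137 on the minus strand. A further Vegfa window, at chr9:22460028-22460327, held 0 matches to any of the motifs and is not shown.
Vegfa: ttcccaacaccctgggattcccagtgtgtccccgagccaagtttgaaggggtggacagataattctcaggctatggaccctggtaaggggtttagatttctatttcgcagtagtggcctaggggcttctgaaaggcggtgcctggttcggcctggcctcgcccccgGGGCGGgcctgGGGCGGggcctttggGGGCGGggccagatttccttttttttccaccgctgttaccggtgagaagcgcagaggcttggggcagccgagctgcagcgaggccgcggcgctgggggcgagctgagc
Flt1: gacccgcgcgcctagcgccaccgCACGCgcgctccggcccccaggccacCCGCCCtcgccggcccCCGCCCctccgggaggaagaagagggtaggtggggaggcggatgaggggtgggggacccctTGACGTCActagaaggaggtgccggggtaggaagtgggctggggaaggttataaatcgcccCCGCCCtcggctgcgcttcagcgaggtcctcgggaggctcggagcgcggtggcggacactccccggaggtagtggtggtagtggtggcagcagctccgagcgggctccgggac
Vegfc: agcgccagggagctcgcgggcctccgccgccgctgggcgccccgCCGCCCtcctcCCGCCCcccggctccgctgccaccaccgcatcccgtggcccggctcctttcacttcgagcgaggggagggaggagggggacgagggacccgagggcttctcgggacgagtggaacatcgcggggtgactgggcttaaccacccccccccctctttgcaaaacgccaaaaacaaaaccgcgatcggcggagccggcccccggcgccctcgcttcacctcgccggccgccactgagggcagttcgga

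The Vegfa window held 3 GC boxes on the forward strand, beginning at -84, -73 and -58 from the gene start, and no other match. Sites more than 250 bases before the start were not searched, so this does not show that Vegfa lacks a hypoxia response element. The Flt1 window held 3 GC boxes on the reverse strand, 1 cAMP response element at -124 to -117 and 1 GCGTG core on the reverse strand at -227 to -223. The Vegfc window held 2 GC boxes on the reverse strand, at -206 and -195. Among all 33469 windows of 300 bases in the table, 33.1% held a GC box, 19.3% ACGTG, 29.7% GCGTG, 1.83% the cAMP response element and 7.33% an AP-1 site. A GC box is therefore common in windows of this length. Among genes without a probe set that passed, the Kdr window held 1 GC box and 2 GCGTG cores. The Bdnf window at chr3:116621721-116622020 held 2 GC boxes and 1 AP-1 site, and other Bdnf windows held ACGTG or GCGTG cores. The Hgf and Met windows held 0 matches. All these matches describe letters in a window and were not tested against the expression values.

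The signal is a linear MAS5 intensity, scaled so that arrays are comparable. Median signal over all probe sets was 21.1 to 22.6 on static and 17.3 to 18.9 on shear arrays. Shear array 1 had a mean correlation of 0.980 with the other shear arrays, against 0.986 and 0.987 for shear arrays 2 and 3. Changes are differences of log2(signal + 16), shear minus static, fitted with the pairing number as a block, and a change passed when its Benjamini-Hochberg adjusted p over all 21729 probe sets tested was under 0.05. The dimmest 30% of probe sets by mean were not tested, a limit that corresponds to a signal near 6.69. Of the probe sets tested 52.8% passed, 24.3% as risen and 28.5% as fallen. The median change was -0.07, and 0.08 when arrays were centred on their medians. Risen probe sets made up 46.1% of those that passed, or 52.4% with quantile-normalized and 59.1% with median-centred arrays. The array reads RNA from a whole culture, so fewer cells of a type and less RNA per cell cannot be told apart.

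Vegfa rose, Vegfc fell and Flt1 rose on 1 of its 3 probe sets, while Met and Bdnf did not pass and the 5 probe sets of Kdr, Hgf, Angpt1 and Angpt2 were near the floor. In counts, 9 of the 14 probe sets, from 5 of the 9 genes, were above the limit. Of these 9, 3 rose, 1 fell and 5 did not pass. The 4 that passed were 44.4% of those tested, against 52.8% of all probe sets, so these genes passed no more often than the array as a whole. In 6 of the 9 the static and shear arrays did not overlap, against 60.0% of all probe sets tested. Shear lay above in 3 (27.1% of all) and below in 3 (32.9% of all). Their median change of -0.06 lay beside the median of -0.07 over all probe sets.

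**Figure D1:**
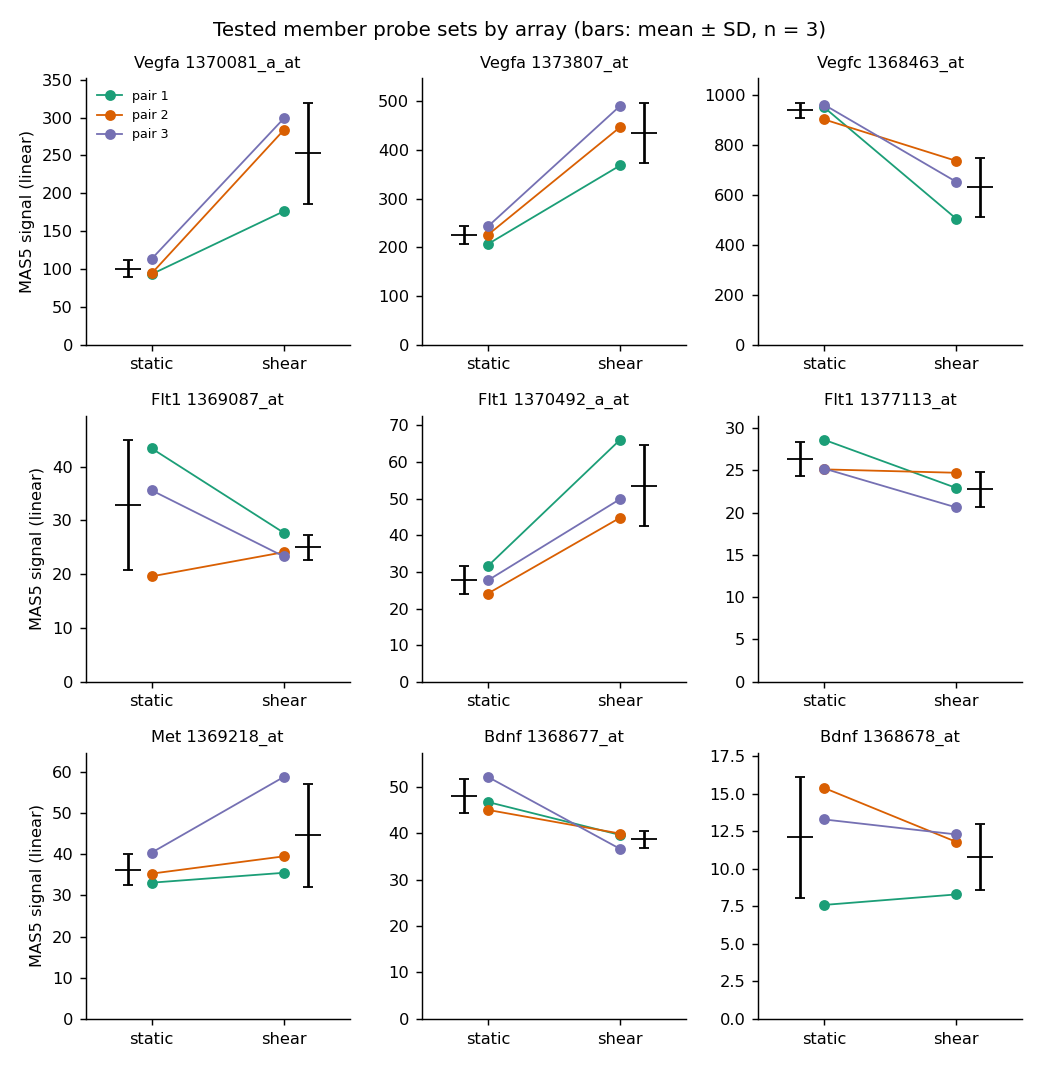
MAS5 signal (linear axis from 0) of the 9 tested probe sets on each array, with lines joining arrays of a pair and black bars for mean ± SD (n = 3). All shear arrays lie above all static arrays for both Vegfa probe sets and for Flt1 1370492_a_at, and below them for Vegfc, Flt1 1377113_at and Bdnf 1368677_at.

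Vegfa rose under shear on both of its probe sets, to 1.93 and 2.53 times its static mean. The signal of probe set 1373807_at was 206.6, 225.7 and 242.9 on static arrays 1 to 3 and 368.3, 447.1 and 490.8 on shear arrays 1 to 3. All shear values lay above all static values, and the lowest came from shear array 1. The means were 225.1 ± 18.2 in static and 435.4 ± 62.1 in sheared cells (SD, n = 3), a ratio of 1.93. The change was 0.90 on the log2 scale (95% interval 0.68 to 1.12, adjusted p = 0.00015). Pairs 1 to 3 differed by 0.79, 0.94 and 0.97.

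The other Vegfa probe set, 1370081_a_at, read 93.1, 94.1 and 113.3 on static arrays and 176.3, 283.7 and 299.0 on shear arrays. The groups again did not overlap, and shear array 1 was again the lowest of the sheared arrays. Its means were 100.2 ± 11.4 and 253.0 ± 66.9 (SD, n = 3), a ratio of 2.53, and its log2 change was 1.18 (95% interval 0.86 to 1.51, adjusted p = 0.00026). Within pairs the change was 0.82, 1.44 and 1.28. The suffix _a marks, in the array's naming, a probe set shared by several transcripts of a gene, and Vegfa is known for its many splice forms. The change on this probe set exceeded that on 1373807_at by 0.28 on the log2 scale, with 0.03, 0.51 and 0.32 in pairs 1 to 3. In a two-sided exact permutation test of this within-array difference p was 0.1, the smallest value that 3 against 3 arrays allow. The test ignores the pairing.

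Vegfc moved the other way. Its single probe set, 1368463_at, read 950.4, 902.0 and 960.9 on static arrays and 503.8, 735.8 and 651.9 on shear arrays. Every shear value lay below every static value, and the spread among sheared arrays was the wider, with shear array 1 the lowest. The mean went from 937.8 ± 31.4 to 630.5 ± 117.5 (SD, n = 3), a ratio of 0.672. The log2 change was -0.58 (95% interval -0.85 to -0.31, adjusted p = 0.0039), and the pairs differed by -0.89, -0.29 and -0.55.

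The opposite changes of the 2 VEGF ligands were also compared within arrays. The log2 difference between Vegfa 1373807_at and Vegfc was higher in sheared cells by 1.48, with 1.68, 1.23 and 1.52 in pairs 1 to 3. With Vegfa 1370081_a_at it was higher by 1.76, with 1.71, 1.73 and 1.83. Both gave a two-sided exact permutation p of 0.1, the smallest possible (0.14 after Benjamini-Hochberg adjustment over the 7 within-array comparisons made). That p was fixed beforehand, since the groups of both genes were apart in opposite directions, and adds nothing to the single-gene results. In pair 1 Vegfa rose least and Vegfc fell most.

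Flt1, the VEGFR-1 gene, gave different readings on its 3 probe sets. Probe set 1370492_a_at read 31.6, 24.1 and 27.7 on static and 66.1, 44.8 and 49.9 on shear arrays, with no overlap. It rose from 27.8 ± 3.75 to 53.6 ± 11.1 (SD, n = 3), a ratio of 1.93, or 0.66 on the log2 scale (95% interval 0.38 to 0.93, adjusted p = 0.0022). The pairs gave 0.79, 0.60 and 0.59. With a pseudocount of 64, which shrinks changes of dim probe sets, the change was 0.35 and still passed.

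Probe set 1369087_at read 43.4, 19.6 and 35.6 on static and 27.7, 24.1 and 23.3 on shear arrays, and its groups overlapped because static array 2 was the lowest of all. It did not pass (-0.22, 95% interval -0.58 to 0.14, adjusted p = 0.27). Probe set 1377113_at read 28.6, 25.1 and 25.2 on static and 22.9, 24.7 and 20.6 on shear arrays. Its shear values lay just below its static values without passing (-0.13, 95% interval -0.41 to 0.16, adjusted p = 0.41).

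Within arrays, the change of Flt1 1370492_a_at exceeded that of 1369087_at by 0.88 and that of 1377113_at by 0.79 on the log2 scale. In every pair the sign was equal. Each gave a two-sided exact permutation p of 0.1, the smallest possible (0.14 adjusted over the 7 comparisons), in a test that ignores the pairing. Against 1377113_at that p was fixed beforehand, since the groups of both probe sets were apart in opposite directions. As the mean over its probe sets, Flt1 did not pass (0.10, adjusted p = 0.46). The rise of Flt1 therefore rests on 1 probe set, and which transcripts each of them reads was not tested.

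**Figure D2:**
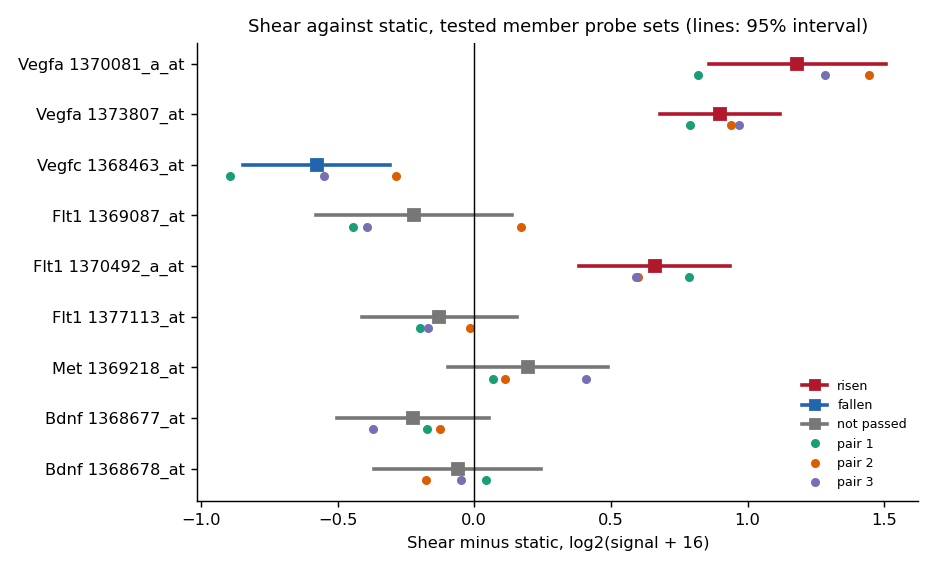
Change under shear, as shear minus static on the log2(signal + 16) axis, for the 9 tested probe sets: squares give the fitted change, lines its 95% interval, and dots the difference within each pair. Both Vegfa probe sets and Flt1 1370492_a_at lie right of 0, Vegfc lies left of it, and the other intervals cross 0.

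Kdr, the VEGFR-2 gene, was near the floor in both groups. Probe set 1367948_a_at read 0.7, 1.6 and 3.3 on static and 1.2, 0.2 and 3.6 on shear arrays. Probe set 1397868_at read 3.9, 8.1 and 1.0 on static and 2.7, 1.0 and 2.3 on shear arrays. The groups overlapped on both, and both lay below the limit, so no test was made in the fit with the filter.

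Hgf, the ligand of Met, was likewise near the floor. Its probe set 1387701_at read 2.0, 7.9 and 1.0 on static and 6.8, 1.8 and 1.5 on shear arrays, with no order between the groups. Met itself was measurable on probe set 1369218_at, at 33.1, 35.3 and 40.4 on static and 35.5, 39.5 and 58.8 on shear arrays. Shear array 3 stood above the rest and the groups overlapped. Met did not pass (0.20, 95% interval -0.10 to 0.49, adjusted p = 0.23), although each pair differed upwards, by 0.07, 0.11 and 0.41. The result depended on the scaling. With quantile-normalized arrays the change was 0.34 and with median-centred arrays 0.35, both just short of passing in limma (adjusted p = 0.052).

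The angiopoietins were near the floor as well. Angpt1 on 1381487_at read 0.5, 0.6 and 4.4 on static and 0.2, 0.3 and 0.2 on shear arrays, and its shear values were all below its static ones at readings near 0. Angpt2 on 1374207_at read 0.3, 8.6 and 1.6 on static and 3.2, 0.2 and 0.4 on shear arrays, with overlapping groups. Single readings of 8.6 for Angpt2, 8.1 for Kdr and 7.9 for Hgf all came from static array 2.

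When the filter was dropped, 0 of these 5 probe sets passed in limma, and 0 had an unadjusted p under 0.05. Their adjusted p ranged from 0.30 to 0.96. A reading at this level does not show that the transcript was absent.

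**Figure D3:**
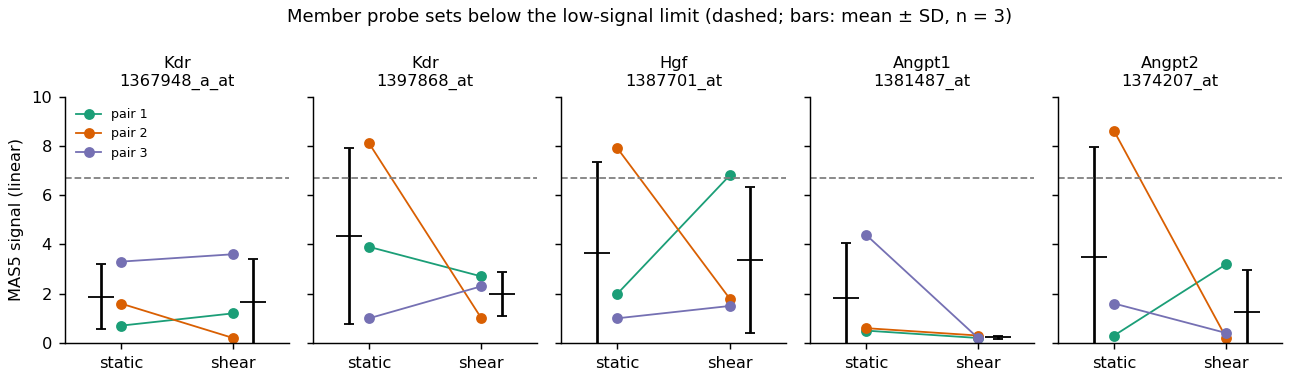
MAS5 signal (linear axis) of the 5 probe sets of Kdr, Hgf, Angpt1 and Angpt2 on each array, with lines joining pairs, black bars for mean ± SD (n = 3, SD bars cut at 0) and a dashed line at the limit of 6.69. Readings run from 0.2 to 8.6, and at most 2 arrays of a probe set lie above the line.

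Bdnf, the neurotrophin, was measured above the limit on both of its probe sets without passing on either. Probe set 1368677_at read 46.7, 45.0 and 52.1 on static and 39.6, 39.9 and 36.6 on shear arrays. All shear values were below all static ones, but the change of -0.22 (95% interval -0.50 to 0.05, adjusted p = 0.15) did not pass. Probe set 1368678_at read 7.6, 15.4 and 13.3 on static and 8.3, 11.8 and 12.3 on shear arrays, with overlap (-0.06, 95% interval -0.37 to 0.24, adjusted p = 0.72). The sign on this probe set turned under both other scalings, with 0.056 for quantile-normalized and 0.088 for median-centred arrays.

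The other genes of these pathways were read from lists of 50 genes, with the brightest probe set standing for each. Of the 46 matched to a probe set, 36 were above the limit, and 9 rose, 11 fell and 16 did not pass. After median centring 13 rose and 8 fell, and after quantile normalization 10 rose and 8 fell. The share that passed was 55.6%, against 57.9% of all genes tested in this way (27.8% risen and 30.1% fallen), and the median change was 0.02 against -0.05. As a whole these genes did not pass more often than others.

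Other VEGF ligands and receptors fell in 3 of 5 cases (30.1% of all genes) and rose in 1 (27.8%). Nrp1, encoding neuropilin 1, a co-receptor that presents VEGF-A to VEGFR-2, read 429.9, 606.6 and 569.2 on static and 83.3, 133.7 and 134.0 on shear arrays. The groups lay far apart, at 535.2 ± 93.1 and 117.0 ± 29.2 (SD, n = 3), a log2 change of -2.06 (95% interval -2.29 to -1.83, adjusted p = 4.7e-06). Its other probe set fell by 2.16.

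Pgf, encoding placental growth factor, a ligand of VEGFR-1, read 164.9, 197.1 and 217.3 on static and 30.8, 39.7 and 35.9 on shear arrays. It fell by 2.02 on the log2 scale (adjusted p = 8.3e-06), and its other probe set by 1.87. Vegfd, a ligand related to Vegfc, fell from 95.2 ± 12.6 to 63.1 ± 4.65 (SD, n = 3; -0.49, adjusted p = 0.0078). That call was lost without pair 2 (adjusted p = 0.077) or pair 3 (adjusted p = 0.0504). Nrp2, the neuropilin that binds VEGF-C, read 180.3, 158.7 and 155.8 on static and 402.8, 219.2 and 203.4 on shear arrays. It rose by 0.63 (adjusted p = 0.010), with shear array 1 the highest, and by 0.39 without pair 1 (adjusted p = 0.0012). Its other probe set did not pass (-0.19), nor did the mean of both (0.22, adjusted p = 0.15). Vegfb did not pass (-0.05, adjusted p = 0.73), and Flt4, the VEGFR-3 gene, lay below the limit.

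For the HGF axis, 1 of 3 tested genes fell (30.1% of all genes), 0 rose (27.8%) and 3 lay below the limit. Among the latter were the HGF activator Hgfac and hepsin Hpn. St14, encoding the protease matriptase, which can activate HGF, fell from 65.9 ± 0.709 to 47.4 ± 4.69 (SD, n = 3; -0.37, adjusted p = 0.028). Its call was lost after quantile normalization (-0.23), after median centring (-0.22), without the filter, and without pair 2 or pair 3. The HGF activator inhibitors Spint1 (0.17, adjusted p = 0.34) and Spint2 (-0.10, adjusted p = 0.41) did not pass, and Spint2 turned to 0.044 after median centring.

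Angiopoietin receptors and relatives fell in 3 of 5 cases, with 0 risen, and in 2 of the other 4 when Angptl2 is set aside. Of all genes tested, 30.1% fell and 27.8% rose. Ptprb, encoding the receptor phosphatase VE-PTP that acts on Tie2, read 121.3, 81.7 and 81.6 on static and 16.4, 3.4 and 5.3 on shear arrays, a change of -2.20 (adjusted p = 7.5e-06). Its other probe set fell by 1.54. Angptl2, an angiopoietin-like protein, read 23.4 ± 3.32 on static and 1.47 ± 0.252 on shear arrays (SD, n = 3). It was above the limit through its static level only, so its call is not counted as support. Angpt4 fell by 0.42 (adjusted p = 0.034), a call lost after quantile normalization, after median centring, without the filter, and without pair 2 or pair 3. Tek, the Tie2 gene, did not pass (-0.08, adjusted p = 0.65), and Tie1 lay below the limit.

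Among neurotrophins and their receptors 4 of 7 matched genes lay below the limit, namely Ntf3, Ntf4, Ntrk3 and Ngfr, the gene of the p75 receptor. Sort1, encoding sortilin, which binds proneurotrophins, read 74.9, 85.9 and 87.2 on static and 23.9, 24.2 and 21.6 on shear arrays. It fell by 1.33 (adjusted p = 6.7e-05), while its other probe set did not pass (-0.13). Sorcs2, a sortilin relative, fell by 0.36 (adjusted p = 0.046) from a low 16.3 ± 5.77 (SD, n = 3), and did not pass without the block, with a random block, under either other scaling, without the filter, with a pseudocount of 1 or with any 1 pair left out. Ntrk2, the TrkB gene, read 7.6, 8.3 and 6.2 on static and 10.9, 12.8 and 17.9 on shear arrays. It did not pass (0.35, adjusted p = 0.078). It passed after quantile normalization (0.46), after median centring (0.50), without the block (adjusted p = 0.049) or with a random one (adjusted p = 0.044). These values rest on 1 of the 5 Ntrk2 probe sets, as the others lay below the limit. The static mean of the tested probe set, 7.37, was itself close to the limit.

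Adapters and signal proteins downstream of these receptors rose in 5 of 14 cases (27.8% of all genes) and fell in 2 (30.1%). The count depends on the probe set chosen. Ptpn11, Stat3 and Pik3ca did not pass on their brightest probe set, but others of theirs rose (1.21, 0.43, and 0.66 and 0.56). In turn, some other probe sets of Pik3ca, Frs2, Cbl, Src and Akt1 did not pass. Grb2, the adapter that links receptor kinases to Ras, rose from 410.4 ± 9.58 to 879.5 ± 84.6 (SD, n = 3; 1.07, adjusted p = 5.9e-05). Of its other probe sets 1 rose (0.42) and 1 did not pass (0.07). Sos1, the Ras exchange factor bound by Grb2, rose by 0.87 (adjusted p = 0.00019). Gab1, a docking protein of Met, fell from 142.0 ± 7.68 to 54.5 ± 5.97 (SD, n = 3; -1.17, adjusted p = 8.9e-05).

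Subunits of hypoxia-inducible factor, of which Vegfa is a known target, its oxygen sensors and Vhl rose in 3 of 6 cases (27.8% of all genes). Of these 6, 0 fell (30.1% of all genes). Hif1a, an oxygen-regulated subunit, read 797.6, 745.9 and 750.6 on static and 1572.1, 1803.2 and 1725.0 on shear arrays, a change of 1.13 (adjusted p = 2.1e-05). Vhl, which marks that subunit for degradation, rose by 1.06 (adjusted p = 7.5e-05). Egln1, the main prolyl hydroxylase acting on it, read 137.6, 144.0 and 164.5 on static and 151.2, 585.9 and 604.2 on shear arrays. Its groups overlapped, since shear array 1 stayed at the static level. Its change of 1.27 (adjusted p = 0.0097) became 1.85 without pair 1 and did not pass with robust estimation (adjusted p = 0.073). The other Egln1 probe set lay below the limit, and the mean of both rose by 0.62 (adjusted p = 0.030). Epas1 (-0.04) and Arnt (0.09), which encode other subunits, did not pass. Of the other sensor genes, Egln2 did not pass (-0.10, adjusted p = 0.45) and Egln3 lay below the limit. Whether these changes bear on Vegfa was not tested.

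**Figure D4:**
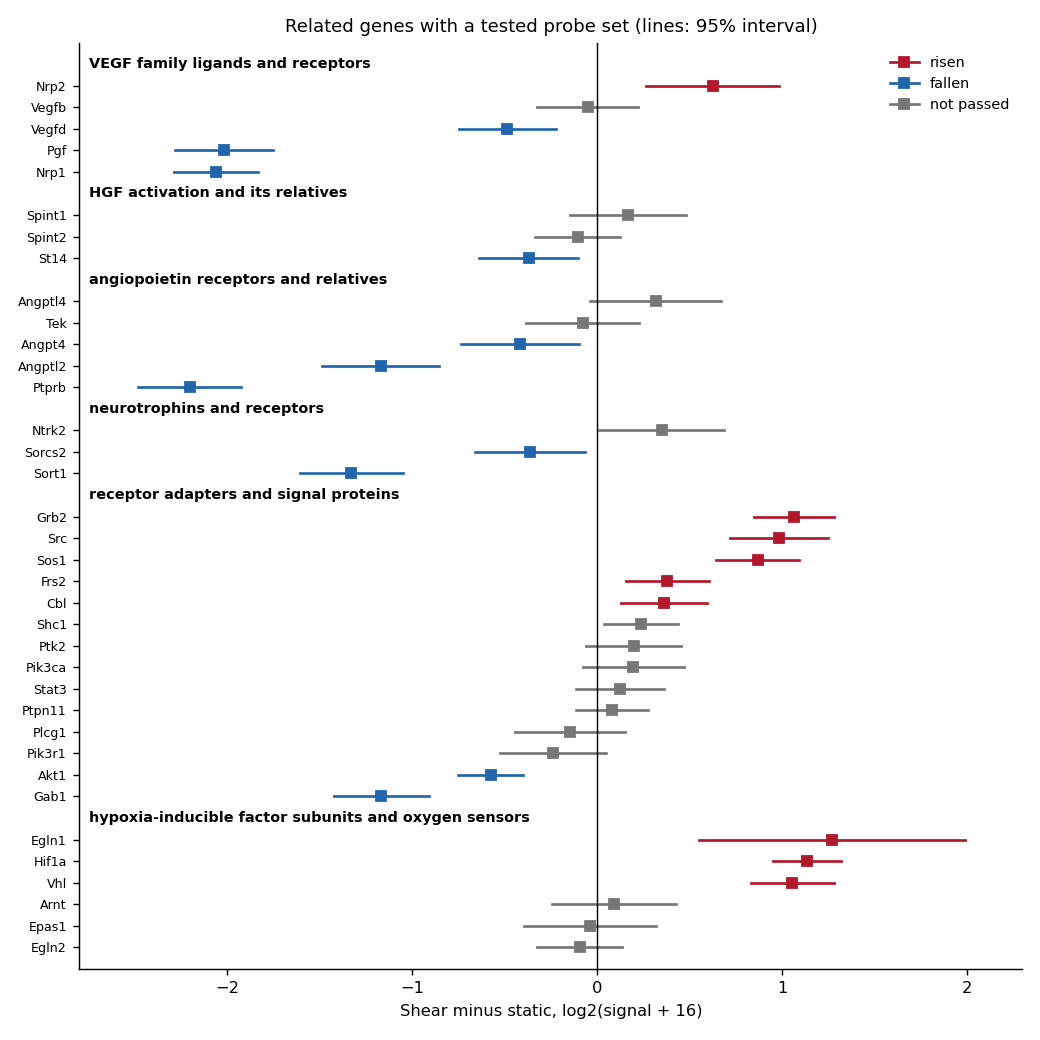
Change under shear, as shear minus static on the log2(signal + 16) axis, for the 36 related genes with a tested probe set, grouped by list: squares give the fitted change and lines its 95% interval, coloured by whether the change passed. Nrp1, Pgf and Ptprb lie near -2, and Hif1a, Vhl, Egln1 and Grb2 lie near or above 1.

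Kdr, Flt1 and Tek are known from endothelial cells, so markers of cell types were read beside them. All 10 smooth muscle markers were above the limit, and 7 fell, 0 rose (1 after median centring) and 3 did not pass. The share of all genes tested in this way that passed was 57.9%, with 27.8% risen and 30.1% fallen, and nothing is read from the marker lists beyond their counts. Of the markers that passed, Lmod1 and Twist2 were above the limit through their static level only and Coro1a through its shear level only. Acta2, smooth muscle actin, went from 1811.1 ± 156.7 to 836.1 ± 89.1 (SD, n = 3). Tagln, with means of 2684.4 in static and 2815.3 in sheared cells, did not pass (0.07, adjusted p = 0.38), nor did Myocd (-0.17) or Des (0.01). Of 10 endothelial markers matched, 7 lay below the limit, among them the defining Pecam1, at 0.7 to 8.6, and Vwf, at 0.8 to 7.7 over the 6 arrays. Erg (mean 44.1 on static and 40.6 on shear arrays) and Esam (20.3 and 23.1) were above the limit and did not pass. The summed endothelial signal was 180.1 to 216.3 on static and 162.2 to 185.0 on shear arrays, and its brightest member, Egfl7, fell by 0.40 (adjusted p = 0.020). That call was lost after quantile normalization, after median centring and without pair 3. The other Egfl7 probe set did not pass (-0.10, adjusted p = 0.59). Fibroblast markers were all above the limit, with 2 risen and 4 fallen of 8, and summed to 5327.9 to 7767.0 on static and 4339.0 to 7325.4 on shear arrays. None of the fibroblast rises was called without the block. Leukocyte markers had 2 risen (Cd68 and Coro1a, both below the 50% filter) and 1 fallen of 5, with Ptprc and Itgam below the limit, and summed to 189.5 to 249.0 on static and 138.2 to 184.6 on shear arrays. The part of these cell types in the changes of Vegfa, Vegfc and Flt1 was not tested.

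Genes whose log2 signals followed a member most closely over the 6 arrays were named for each member with a tested probe set. The arrays fall into 2 groups, so a high correlation mainly reflects a shared difference between them, and no p is given. For Vegfa 1373807_at these were Qdpr and Rnf4, each with a Pearson r of 1.00 after rounding, out of 1596 probe sets with r above 0.95. For Vegfc they were Hoxa9 (r = 0.998) and Hnrnpl (r = 0.994), and for Flt1 1370492_a_at Dpy19l1 (r = 0.997) and Abcf3 (r = 0.996). Met, with only 8 probe sets above 0.95, was followed most closely by Nrf1 (r = 0.991) and Tmem132e (r = 0.989), neither of which passed. Bdnf 1368677_at was followed by Ppm1j (r = 0.993) and Ppp1r26 (r = 0.991), which both passed as fallen (-0.56 and -0.76) while Bdnf did not. Ppm1j was above the limit through its static mean of 12.6 only, with a shear mean of 3.43.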

How the data were processed

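Biotin-labelled RNA from 6 samples was hybridised to Affymetrix rat arrays, 1 array per sample. The deposited intensity came from MAS5, per the submitters' processing notes, in a version not stated there. It was linear, with 1 value per probe set, and its mean without the highest and lowest 2% of probe sets was 100.0 on each array. No detection calls were used, and the number of arrays limits the precision. The values held 3 to 10 exact zeros per array, so 16 was added before log2, which understates changes of dim genes.

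Control probe sets (57) were left out. The remaining 31042 had 1 symbol (20826), several (436) or none (9780) in the platform annotation. All 9 member gene identifiers matched the GRCr8 gene table, which changed 0 member symbols. The dimmest 30% by mean were removed (limit 4.50 on the log2 scale). Both groups were fitted in limma 3.58.1 under R 4.3.3 by lmFit and by eBayes with its intensity trend, the pairing number being a block, as the series design calls the experiment paired. Deviations from group means correlated by 0.071, 0.065 and 0.063 within pairs 1 to 3. All tests were two-sided, with Benjamini-Hochberg adjustment over all probe sets tested. Single within-array differences were compared between groups by exact permutation tests that ignore the pairing (scipy 1.17.1). Figures were drawn with matplotlib 3.10.9 (Python 3.11.15).

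The members and lists were chosen with earlier results of these data known. All member probe sets are named, of each related list up to 3 genes by smallest p, and for each tested member the 2 genes with the highest Pearson r. Nrp2, Vegfb, Flt4, Hgfac, Hpn, Tek, Tie1, Epas1, Arnt, Egln2 and Egln3 were chosen after their values were seen. So were the neurotrophin genes below the limit, the markers named, the within-array comparisons and the promoter motifs.

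Alternatives changed the block (none, random), the scaling (quantile, median), the filter (none, 50%), the pseudocount (1, 64) and the variance model (no trend, robust). Each pair was also left out, and probe sets of a gene were averaged.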

Additional observations from a re-analysis of the deposited data

How the results depend on the processing

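Both Vegfa probe sets, Vegfc and Flt1 1370492_a_at passed with the same sign under every alternative run on the probe set itself, the fit without the replicate block included. The range was 0.78 to 1.05 for Vegfa 1373807_at, 0.93 to 1.36 for Vegfa 1370081_a_at, -0.72 to -0.42 for Vegfc and 0.35 to 0.91 for Flt1 1370492_a_at. As the mean over its 3 probe sets Flt1 did not pass (0.10, adjusted p = 0.46). The sign turned for 2 probe sets that did not pass in any fit: Flt1 1377113_at (0.031 after quantile normalization and 0.022 after median centring) and Bdnf 1368678_at (0.056 and 0.088). Spint2 turned to 0.044 after median centring. Median centring shifts all changes by the same amount, and took their median from -0.07 to 0.08, so small negative changes can turn sign under it. What turned signs after quantile normalization was not tested. Without the block, 11430 probe sets passed instead of 11471, and 3 member probe sets rose and 1 fell, as with it. Leaving out 1 pair gave 8389 to 13024 probe sets, 7 to 13 related genes risen and 7 to 11 fallen, with the lowest fallen count without pair 2 or without pair 3. Among markers, 1 smooth muscle gene rose after median centring. The 1 endothelial fall went to 0 after quantile normalization or median centring and ranged from 0 to 1 with a pair left out. The 2 fibroblast rises went to 0 without the block or with a random block, and ranged from 1 to 3 with a pair left out. The 2 leukocyte rises went to 0 with the 50% filter, which leaves fewer genes tested, and ranged from 1 to 2 with a pair left out. Fits with a pair left out rest on 2 pairs and lean on the variance borrowed across probe sets. Signals near the floor limit what can be said of Kdr, Hgf, Angpt1 and Angpt2.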
